A study of Mus musculus with 6 samples.

Results

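The genes described are 10 components of the growth factor systems through which macrophages act in tissue repair, namely Igf1, Igf1r, Igf2r, Igfbp4, Tgfb1, Tgfbr1, Tgfbr2, Pdgfa, Pdgfb and Hbegf. They were taken by symbol from the 54532 genes in the files, and all 10 were found. The list of symbols was chosen with earlier results of these data known. The cells were mouse bone marrow-derived macrophages made into growing lines by retroviruses carrying v-raf and v-myc, and every group had received IL-4, the cytokine of alternative activation, at 10 ng/ml for 24 hours. RNA from WT cells (3 libraries) was compared with RNA from cells labelled 4-1BBL KO (3 libraries), which lack the TNF family ligand encoded by Tnfsf9 according to their label and are called KO-labelled here. The title of the study asks how 4-1BBL bears on anti-inflammatory responses and metabolism of macrophages. Unstimulated cells were not analysed here, and each value is thus a level under IL-4 rather than a response.

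Insulin-like growth factor 1 signals through the tyrosine kinase receptor IGF1R, IGFBP4 binds IGFs outside the cell, and IGF2R, the mannose 6-phosphate receptor, removes IGF2 and sorts lysosomal enzymes. TGF-beta is secreted in a latent form, binds the receptor TGFBR2, which then activates TGFBR1, and the signal is carried by SMAD proteins. PDGF chains A and B pair into dimers that act mainly on fibroblasts, smooth muscle cells and pericytes, and HB-EGF is a membrane-anchored ligand of the EGF receptor that is released by proteases. Macrophages in healing tissue are a known source of IGF-1, TGF-beta and PDGF.

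The levels are FPKM, that is fragments scaled to exon length and to the fragments assigned to genes, so they can be set side by side between genes. The 6 libraries held between 19136298 and 26389571 assigned fragments. All 12 genes of a macrophage marker list were expressed in the KO-labelled cells and 11 of them in WT, where Mertk had 2 fragments in all. Csf1r was at 232 ± 1.22 FPKM in the WT group and 134 ± 2.95 FPKM in the KO-labelled group, and Adgre1 at 11.8 ± 0.625 and 268 ± 6.07 FPKM (SD, n = 3), while 6 of 8 fibroblast markers, the collagen genes Col1a1 and Col3a1 among them, were at 0 in every library. Of that macrophage list, 4 genes were higher, 4 lower and 4 did not pass. The summed level of the list was 2815 to 2873 FPKM in the WT libraries against 1916 to 1930 FPKM in KO-labelled libraries. Much of that fall was Lyz2, with group means of 1207 ± 12.5 (WT) and 484 ± 32.8 FPKM (KO-labelled). The level of Lyz2 is less certain, since Lyz1 has a near-identical transcript. Lymphocyte and granulocyte markers summed to at most 1.38 FPKM in any library. The endothelial and platelet list summed to 1.80 to 2.21 FPKM in the WT libraries against 17.3 to 19.8 FPKM in KO-labelled libraries, nearly all of the rise being Pf4, with 0 fragments in WT and 16.3 ± 1.02 FPKM in KO-labelled cells. Of the endothelial genes, Kdr and Tek were at or near 0, and Cdh5 averaged 0.0338 (WT) and 0.0791 FPKM (KO-labelled). Pecam1, in contrast, was at 1.87 ± 0.0932 (WT) and 1.87 ± 0.225 FPKM (KO-labelled; SD, n = 3), most of the WT sum. Among platelet genes of the list, Itga2b averaged 0.0396 (WT) and 0.0381 FPKM (KO-labelled), and Gp9 had 3 fragments, all in WT. Ppbp had 3 fragments over the WT libraries and 22 over the KO-labelled ones. The part of Pf4-expressing cells in the results was not tested. Tnfsf9 itself was at 12.3 ± 2.10 and 10.9 ± 0.414 FPKM (SD, n = 3) and missed the threshold (limma adjusted p = 0.273), and the deleted part of the gene is not stated in the labels. The groups also differed on the Y chromosome, with 1 fragment of Ddx3y in all WT libraries against 10.8 ± 1.13 FPKM in KO-labelled ones, so the labelled genotype and other differences between the lines cannot be told apart.

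Upstream sequences are shown for the genes on which the results turn. RefSeq (GRCm38.p6, the mm10 build) gave promoter windows for 8 of the 10 genes, and the 250 bases before the start site were searched on both strands for 6 short motifs. For STAT6, the transcription factor that IL-4 activates, the letters searched were TTCNNNNGAA. A match to PU.1, the factor that defines the myeloid lineage, was taken as GAGGAA. The AP-1 motif was searched as TGANTCA. For the SMAD proteins downstream of TGF-beta the search used CAGACA. The GC box bound by SP1 and related factors was GGGCGG. The core promoter element known as the TATA box was TATAAA. Matches are in capitals, and each sequence runs 5′ to 3′ in the direction of the gene. Igf1r and Tgfbr2 stand for the receptors that rose and fell and Tgfb1 for a ligand whose level did not pass, and of the Igf1 window only the stretch from the first to the last match is given.
Igf1, chr10:87861051-87861080, plus strand: GAGGAAgggaaggagctggaactTGAATCA
Igf1r, chr7:67952007-67952256, plus strand: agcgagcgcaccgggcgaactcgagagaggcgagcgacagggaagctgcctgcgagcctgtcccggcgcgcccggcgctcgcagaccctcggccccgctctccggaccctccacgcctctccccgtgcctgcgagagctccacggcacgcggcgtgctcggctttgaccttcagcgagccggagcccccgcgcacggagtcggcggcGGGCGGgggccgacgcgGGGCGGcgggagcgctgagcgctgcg
Tgfbr2, chr9:116175364-116175613, minus strand: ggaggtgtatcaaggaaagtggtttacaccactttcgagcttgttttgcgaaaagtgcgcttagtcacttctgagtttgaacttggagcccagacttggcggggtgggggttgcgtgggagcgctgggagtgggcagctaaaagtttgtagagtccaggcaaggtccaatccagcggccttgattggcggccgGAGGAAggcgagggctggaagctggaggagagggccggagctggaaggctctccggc
Tgfb1, chr7:25686752-25687001, plus strand: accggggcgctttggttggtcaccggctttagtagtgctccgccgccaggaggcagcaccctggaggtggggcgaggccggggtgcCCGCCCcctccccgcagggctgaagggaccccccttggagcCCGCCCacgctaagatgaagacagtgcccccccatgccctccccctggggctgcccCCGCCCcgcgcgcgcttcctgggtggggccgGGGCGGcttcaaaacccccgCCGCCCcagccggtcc

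The windows differed in composition. Igf1 (52.8% G and C) and Tgfbr2 (58.4%) lay near the median of 52.4% over 32851 RefSeq windows, whereas Igf1r (77.6%) and Tgfb1 (75.2%) were GC-rich. Igf1 and Tgfbr2 each held 1 PU.1-type match, starting 60 and 57 bases before the start site, and 23.3% of all windows held at least 1. Such a match was also in a window of Pdgfa (27 bases before) and of Tgfbr1 (95 bases before), whose sequences are not printed. The AP-1 match in Igf1 is of a kind found in 6.75% of windows. Igf1r held 2 GC boxes and Tgfb1 held 5, and 32.7% of windows held at least 1. GC boxes were also in windows of Igf2r, Pdgfa and Tgfbr1. The STAT6 letters, present in 5.85% of all windows, were in none of the member windows. The GENCODE annotation places the Igf1 stretch in the first exon of longer Igf1 transcripts. The Igf1r window ends at chr7:67952256, upstream of the GENCODE start of that gene at 67952827. Bases just after its RefSeq start site were not found in a GENCODE transcript of Igf1r. These matches describe letters in a window and were not tested as sites.

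Of the 10 genes, 9 reached the mean of 1 FPKM needed for testing, and 7 of these passed limma at an adjusted p of 0.05 (Benjamini-Hochberg over all tested genes), 2 higher and 5 lower in KO-labelled cells. Over all 10843 tested genes 60.8% passed, 30.6% higher and 30.2% lower, so the number of changed genes is read against that background. The balance of directions depended on scaling, with 3969 genes higher and 2642 lower after rescaling to TPM against 3321 and 3273 on FPKM. For 7 of the 9 the highest library of one group lay below the lowest of the other, beside 67.4% of all tested genes. At a log2 fold change of at least 1 in size, 2 of the 9 were higher and 2 lower, beside 7.23% and 6.28% of tested genes. Of the 2 higher, Igf1r reached the level for testing only through the KO-labelled group, so its place there follows from the filter. These shares are descriptive, as the 10 genes were chosen with earlier results known. The median log2 fold change of the 9 was -0.24 and that of all tested genes 0.01. Fold changes in log2 are on log2(FPKM + 1), KO-labelled minus WT, a scale that compresses changes of genes with low levels. The labels do not tell whether replicate libraries stem from different animals or dishes, and the p-values reflect only library-to-library spread, possibly technical. In bulk RNA a smaller share of expressing cells and less RNA per cell cannot be told apart, which holds for all values given here.

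**Figure D1:**
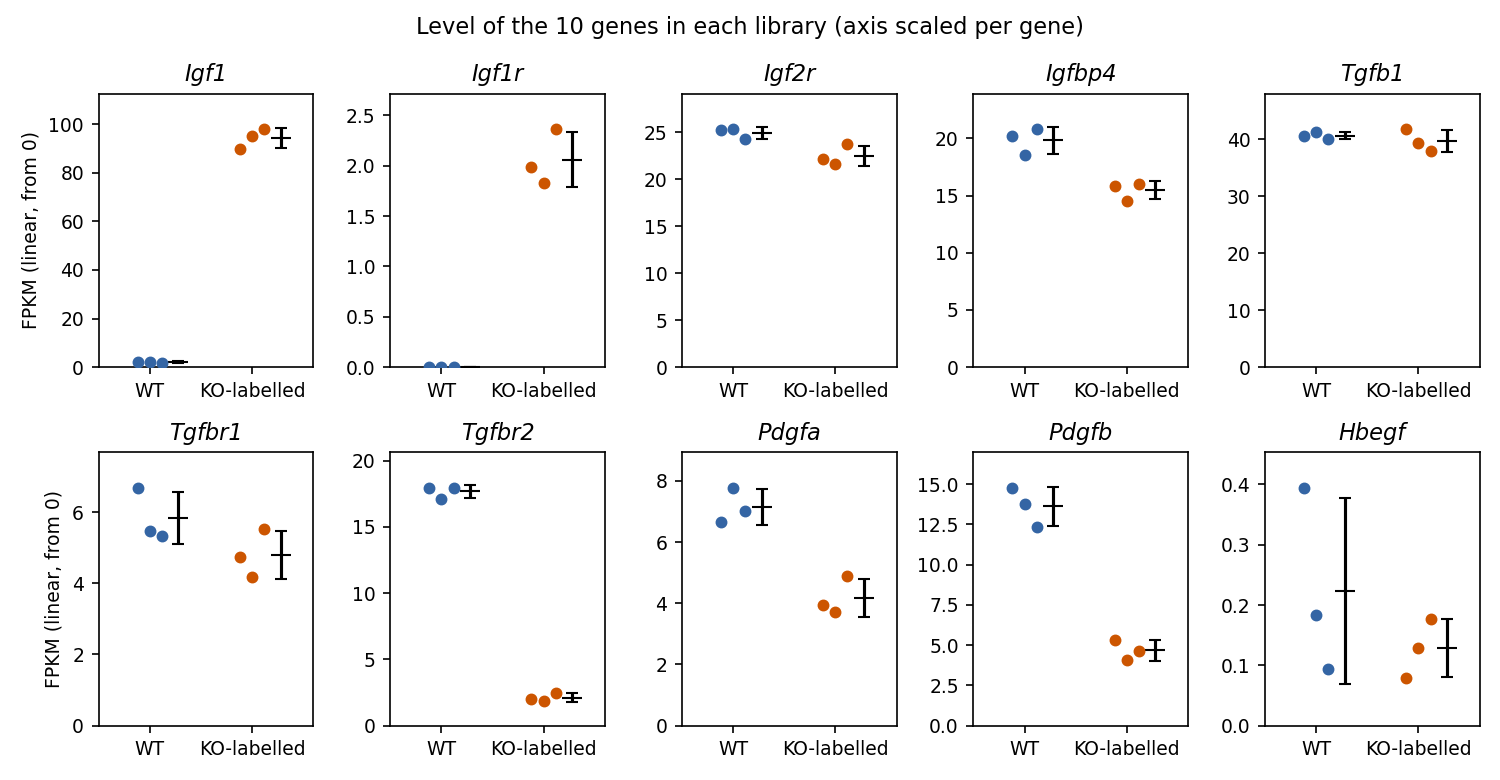
FPKM of each of the 10 genes (linear axis from 0, scaled per gene) in WT libraries (blue) and KO-labelled libraries (orange), points in replicate order 1 to 3, with the group mean and SD (n = 3) as a black bar. Igf1 lies near 2 FPKM in the WT libraries and near 94 FPKM in the others, Tgfbr2 near 18 and near 2 FPKM, and the points of Tgfb1, Tgfbr1 and Hbegf overlap between the groups.

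Igf1, the ligand, showed the largest change of the 10 genes on log2(FPKM + 1), though not as a ratio, where Igf1r went further. It lies at chr10:87858265-87937042 on the plus strand (ENSMUSG00000020053). Its level was 2.32, 2.21 and 1.86 FPKM in the WT libraries, against 89.8, 95.02 and 97.9 FPKM in the KO-labelled libraries (replicates 1 to 3 in order). Every KO-labelled library was thus far above every WT library, and the spread within each group was small beside the gap. The means of 2.13 ± 0.240 and 94.2 ± 4.12 FPKM (SD, n = 3) differ 44.3-fold, with a log2 fold change of 4.93 ± 0.07 (SE) and a limma adjusted p of 1.37e-08. The increase ranked 21st of the 10843 tested genes, and Igf1 moved from the 15.1th to the 95.8th percentile of levels among them. It had been the eighth in level of the 10 genes in WT, and its level in KO-labelled cells was above that of each of the other 9.

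Igf1r, the signalling receptor for IGF-1, was detected in the KO-labelled cells and hardly in WT. Over chr7:67952827-68233668 on the plus strand, 0, 1 and 0 fragments were counted in WT replicates 1 to 3 and 880, 605 and 759 fragments in KO-labelled replicates 1 to 3. In FPKM the KO-labelled libraries had 1.99, 1.83 and 2.36, a mean of 2.06 ± 0.274 (SD, n = 3). The ratio of fragments per depth was 2215, with a 95% exact interval of 397 to 87522 that covers counting error only. Its log2 fold change amounted to 1.61 ± 0.12 (SE; limma adjusted p = 2.55e-05). Igf1r entered the test only through its level in the KO-labelled cells, its mean over all libraries being 1.03 FPKM. The size on a log scale depended on the scale, with 3.01 after rescaling to TPM, 4.41 with a pseudocount of 0.1 and 9.99 with voom on recovered fragments. In the KO-labelled cells its level was still low, at the 13.4th percentile of tested genes, and its libraries overlapped with those of Tgfbr2.

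The other IGF-binding members changed little. Igf2r, at chr17:12682406-12769664 on the minus strand, had 25.2, 25.3 and 24.3 FPKM in the WT libraries, against 22.2, 21.6 and 23.7 FPKM in the KO-labelled libraries (replicates 1 to 3 in order). The KO-labelled libraries were all lower but close to the WT ones, with a log2 fold change of -0.14 ± 0.05 (SE) and a limma adjusted p of 0.0446. The call held without KO-labelled replicate 3 (adjusted p = 0.0170) but not without any other single library, the adjusted p being 0.115, 0.120 and 0.0644 without WT replicate 1, 2 and 3, and 0.0980 and 0.137 without KO-labelled replicate 1 and 2. After rescaling to TPM the log2 fold change was -0.05 with an adjusted p of 0.454. Igfbp4, the secreted IGF-binding protein gene at chr11:99041244-99054392, fell more clearly, from 20.2, 18.5 and 20.8 FPKM in WT to 15.8, 14.5 and 16.01 FPKM in KO-labelled libraries. The groups did not overlap, and the log2 fold change amounted to -0.34 ± 0.06 (SE; limma adjusted p = 0.00298). In KO-labelled libraries Igf2r stood 11.01 ± 0.896 times above Igf1r in FPKM (SD, n = 3), while in WT Igf1r was listed at 0 in 2 of 3 libraries and no ratio is given.

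Around these members, a list of 19 further IGF axis genes held few that these cells expressed. Of the 5 tested, 4 rose, none fell and 1 did not pass, and the median log2 fold change was 1.76. These figures depend on the filter, since Igf2bp1 and Igf2bp3 reached a mean of 1 FPKM only through the KO-labelled group, while Stc1 (266 fragments in WT and 2 in KO-labelled libraries) and Igfbp5 (66 and 0) did not reach it. Without a filter 7 genes of the list passed, 2 of them lower. Of the 4, 3 were Igf2bp3, Igf2bp1 and Igf2bp2, which encode RNA-binding proteins named for their binding to Igf2 mRNA and are not part of IGF signalling at the membrane. Igf2bp2 rose from 7.67 ± 0.124 to 28.3 ± 0.128 FPKM, Igf2bp3 from 0.0135 ± 0.0149 to 6.71 ± 0.0637 FPKM, and Igf2bp1 from 0 in all WT libraries to 2.50 ± 0.206 FPKM (SD, n = 3), at least 173-fold higher against a floor of 3 fragments per library. Exons of Igf2bp3 overlap the antisense gene Malsu1 over 18.7% of their length. The fourth was Insr, the insulin receptor gene, at 2.05 ± 0.253 and 3.25 ± 0.286 FPKM (limma adjusted p = 0.00419). Igf2, the other IGF ligand gene, had 0 fragments in all 6 libraries, which allows at most 0.0274 FPKM per library for counting error only, and Irs1, Igfbp2, Igfbp3 and Pappa were also at 0 throughout. The values of Igf2 and Irs1 are less certain, since each shares a near-identical transcript with another annotated gene, and counting could drop shared reads. These partners, Gm49394 and Gm9747, also averaged 0 FPKM, and they overlap 62.8% of the exon length of Igf2 and 30.9% of that of Irs1.

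**Figure D2:**
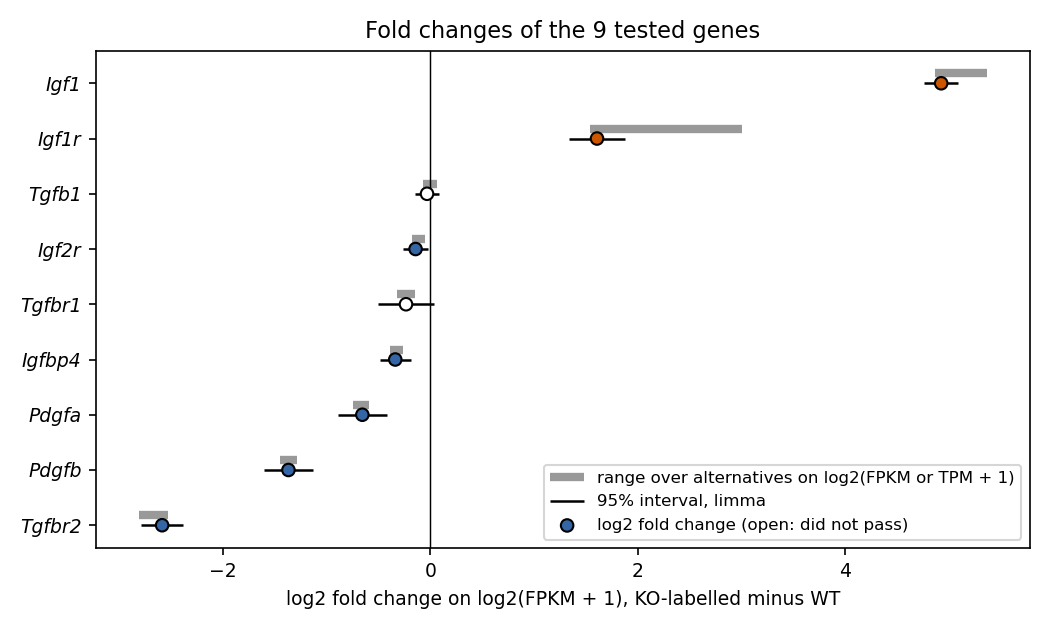
Log2 fold change on log2(FPKM + 1), KO-labelled minus WT, of the 9 tested genes, with its 95% limma interval (black line) and the range over the alternative analyses that also add 1 before the log2 (grey bar). Filled points passed an adjusted p of 0.05 and open points did not; Igf1 (4.93) and Tgfbr2 (-2.59) lie farthest from 0, and Tgfb1 (-0.03) and Tgfbr1 (-0.24) are open.

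For TGF-beta the ligand gene did not pass the test while a receptor gene fell. Tgfb1, at chr7:25687002-25705077 on the plus strand, had 40.6, 41.3 and 39.997 FPKM in the WT libraries, against 41.8, 39.4 and 38.02 FPKM in the KO-labelled libraries (replicates 1 to 3 in order). The groups overlapped, and the means of 40.6 ± 0.671 and 39.7 ± 1.89 FPKM (SD, n = 3) did not differ beyond the spread. The log2 fold change was -0.03 with a 95% interval of -0.15 to 0.08 and a limma adjusted p of 0.587, and its sign turned positive after rescaling to TPM (0.06) and after quantile normalization (0.03). Tgfb1 had the highest level of the 10 genes in WT, at the 87.7th percentile of tested genes, and held the 88.1th percentile in KO-labelled cells. The other ligand genes were far lower, Tgfb3 at no more than 0.278 FPKM in any library and Tgfb2 with 3 and 4 fragments over the WT and the KO-labelled libraries.

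Tgfbr2, the receptor that binds TGF-beta, fell in all KO-labelled libraries. Over chr9:116084293-116175360 on the minus strand its level was 17.96, 17.1 and 17.9 FPKM in the WT libraries, against 2.004, 1.85 and 2.49 FPKM in the KO-labelled libraries (replicates 1 to 3 in order). The groups lay far apart, with means of 17.7 ± 0.468 and 2.12 ± 0.332 FPKM (SD, n = 3), an 8.36-fold difference. The log2 fold change amounted to -2.59 ± 0.08 (SE; limma adjusted p = 5.54e-07), and the decrease ranked 134th of the 10843 tested genes. From the fourth highest level of the 10 in WT, at the 71.7th percentile of tested genes, it came to the 13.9th percentile. It was the largest decrease of the 10 genes.

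Tgfbr1, the partner receptor kinase at chr4:47353222-47414931, had 6.68, 5.47 and 5.34 FPKM in the WT libraries, against 4.74, 4.17 and 5.51 FPKM in the KO-labelled libraries (replicates 1 to 3 in order). KO-labelled replicate 3 lay within the WT range. The log2 fold change was -0.24 with a 95% interval of -0.50 to 0.03 and a limma adjusted p of 0.111, which became 0.0441 without KO-labelled replicate 3, with a log2 fold change of -0.32. It was 0.0450 with voom on recovered fragments. The balance of the receptor pair was therefore compared within libraries. Tgfbr2 stood at 2.69, 3.14 and 3.36 times Tgfbr1 in the WT libraries and at 0.422, 0.445 and 0.452 times in the KO-labelled ones, so the order of the receptor transcripts was inverted in every library. The mean log2 ratio differed by -2.79, and the exact permutation test (two-sided) gave p = 0.1, the smallest that 3 against 3 libraries allow (adjusted p = 0.1 over 2 ratios tested).

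Genes that hold, release or relay TGF-beta moved in both directions. Of 17 genes for its activation and further receptors 5 were tested, with 2 rising, 2 falling and 1 below the threshold for a call (list median of log2 fold changes -0.13). Over all tested genes 30.6% were higher and 30.2% lower, at a median of 0.01. Nrros, which anchors latent TGF-beta on myeloid cells, rose from 27.4 ± 0.906 to 38.0 ± 3.29 FPKM, while Itgav, a chain of the integrins that release it, fell from 10.4 ± 0.222 to 7.39 ± 0.361 FPKM. Of the integrin beta chains on the same list, Itgb6 had 0 fragments in every library and Itgb8 had 1 fragment, in KO-labelled replicate 1. Eng, the co-receptor endoglin, fell from 5.68 ± 0.661 to 0.640 ± 0.222 FPKM, and Acvrl1, a type I receptor of the family, rose from 3.23 ± 0.272 to 5.10 ± 0.325 FPKM (SD, n = 3 each). The limma adjusted p of Nrros, Itgav, Eng and Acvrl1 was at most 0.00117, and Eng was tested only through its WT level. Furin, the protease that cuts the TGF-beta precursor, was at 11.1 ± 0.363 and 10.1 ± 0.534 FPKM and missed the threshold (limma adjusted p = 0.0926).

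Among 17 SMAD signal and feedback genes 13 were tested, at a list median of 0.18 in log2 fold change. Beside 30.6% higher and 30.2% lower over all tested genes, 6 rose, 1 fell (2 without WT replicate 3) and 6 had no call. Genes for inhibitors of the signal were among those that rose, while Pmepa1, another inhibitor, had 300 fragments in WT and 0 in KO-labelled libraries and was below the level for testing. Smad7, which was tested only because of its level in KO-labelled cells and which blocks the receptors, rose from 0.466 ± 0.184 to 1.83 ± 0.259 FPKM, Smad6, a related inhibitor, from 4.22 ± 0.326 to 8.09 ± 1.57 FPKM, and the corepressor gene Ski from 11.05 ± 0.108 to 22.04 ± 1.27 FPKM (SD, n = 3; limma adjusted p of at most 0.00174). Strap, also an inhibitor of the receptors, fell from 104.6 ± 3.62 to 86.3 ± 4.10 FPKM (limma adjusted p = 0.00263). The signal carriers Smad2 and Smad3 did not pass, at 17.1 ± 1.18 and 15.96 ± 1.11 FPKM for Smad2 and 1.73 ± 0.142 and 2.10 ± 0.167 FPKM for Smad3, and Smad4 rose from 17.8 ± 0.552 to 21.5 ± 1.89 FPKM (limma adjusted p = 0.0172).

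The list of textbook TGF-beta targets held 16 symbols for 14 genes, since Cyr61 and Ctgf are older symbols of Ccn1 and Ccn2. All 14 had a row and 9 were tested, with 6 rising, 2 falling and 1 below the threshold for a call (list median of log2 fold changes 0.34). The shares over all tested genes were 30.6% higher and 30.2% lower, with a median of 0.01. Tgfbi, a secreted matrix protein gene, rose from 2 fragments over the WT libraries to 18.3 ± 1.499 FPKM in KO-labelled ones, tested only through the latter and at a ratio of 2204 with a 95% exact counting interval of 610 to 18205. The inhibitors of differentiation Id3 and Id2 also rose, Id3 from 23.6 ± 1.10 to 75.6 ± 0.866 FPKM and Id2 from 20.2 ± 1.84 to 37.3 ± 1.76 FPKM. In the other direction Cdkn1a, the gene of the cell cycle inhibitor p21, fell from 39.3 ± 1.89 to 10.5 ± 0.952 FPKM. These 4 genes had a limma adjusted p of at most 6.08e-05. Genes of this list have other regulators too, the Id genes being known targets of BMP signals.

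**Figure D3:**
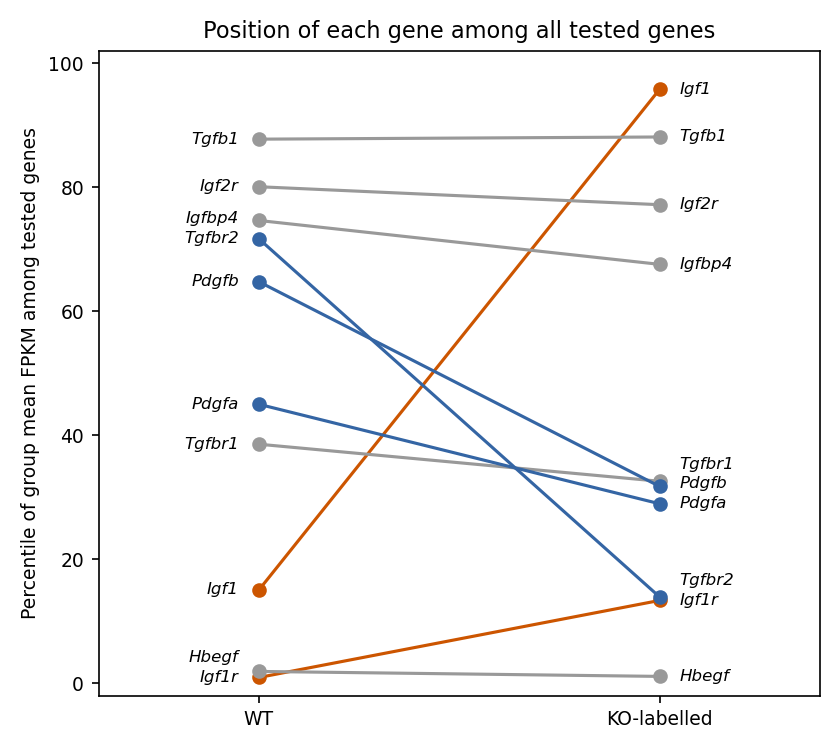
Percentile of each gene's group mean FPKM among the 10843 tested genes, in WT (left) and KO-labelled cells (right), lines joining the same gene; orange and blue mark rises and falls of 10 percentile points or more. Igf1 crosses from the 15.1th to the 95.8th percentile while Tgfbr2 goes from the 71.7th to the 13.9th and Tgfb1 stays near the 88th.

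Both PDGF chain genes were lower in the KO-labelled cells. Pdgfb, at chr15:79995874-80014977 on the minus strand, had 14.8, 13.8 and 12.4 FPKM in the WT libraries, against 5.35, 4.06 and 4.61 FPKM in the KO-labelled libraries (replicates 1 to 3 in order). The lowest WT library was more than 2-fold above the highest KO-labelled one, and the means of 13.6 ± 1.22 and 4.67 ± 0.643 FPKM (SD, n = 3) differ 2.92-fold. The log2 fold change amounted to -1.37 ± 0.10 (SE; limma adjusted p = 2.90e-05).

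Pdgfa, at chr5:138976014-138997370 on the minus strand, had 6.65, 7.77 and 6.998 FPKM in the WT libraries, against 3.95, 3.71 and 4.88 FPKM in the KO-labelled libraries (replicates 1 to 3 in order). Its groups did not overlap either, and the fall was 1.71-fold, with a log2 fold change of -0.66 ± 0.10 (SE) and a limma adjusted p of 0.00119. Of its exon length 26.1% overlaps the antisense gene 6330403L08Rik, which had a mean of 0.806 FPKM over the 6 libraries, and reads of the pair cannot be assumed to have been separated by strand. Within libraries Pdgfa stood at 0.450, 0.565 and 0.566 times Pdgfb in WT and at 0.739, 0.913 and 1.06 times in KO-labelled replicates 1 to 3. The A chain was thus below the B chain in every WT library and near it in the KO-labelled ones, a difference of 0.77 in mean log2 ratio (exact two-sided permutation p = 0.1, the smallest possible, and adjusted p = 0.1 over 2 ratios tested).

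Hbegf, at chr18:36504927-36515805 on the minus strand, was weakly expressed, with 0.395, 0.183 and 0.0946 FPKM in the WT libraries, against 0.0798, 0.128 and 0.176 FPKM in the KO-labelled libraries (replicates 1 to 3 in order). The groups overlapped, the gene was below the level for testing, and an exact two-sided permutation test of the means gave p = 0.4. Its fragment numbers could not be recovered with the annotated exon length.

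The remaining PDGF and EGF family genes included a further PDGF ligand that went the other way. Of 25 listed genes 8 were tested, with 2 rising, 4 falling and 2 below the threshold for a call (list median of log2 fold changes -0.19). All tested genes had 30.6% higher and 30.2% lower, and a median of 0.01. Pdgfc, the gene of PDGF-C, rose from 0.0147 ± 0.0255 FPKM in WT, 5 fragments in all, to 2.85 ± 0.486 FPKM in KO-labelled cells (limma adjusted p = 1.68e-05). It reached the level for testing only through the KO-labelled group, as Erbb3 did only through the WT group. The level of Pdgfc in KO-labelled cells was below those of Pdgfa and Pdgfb there. Rhbdf2, which guides the sheddase ADAM17 to the cell surface, rose from 8.79 ± 0.130 to 11.6 ± 0.310 FPKM. Erbb3, a receptor of neuregulins, fell from 4.24 ± 0.379 to 0.0281 ± 0.0359 FPKM, Cd9, a tetraspanin that associates with the HB-EGF precursor, from 135 ± 3.02 to 86.3 ± 1.10 FPKM, and Errfi1, an EGF receptor inhibitor, from 3.74 ± 0.233 to 2.70 ± 0.0744 FPKM (SD, n = 3; limma adjusted p of at most 0.00419 for these 4). The receptors of the ligands were hardly present, with Pdgfra at 0 in WT and 6 fragments in KO-labelled cells, Pdgfrb at no more than 0.150 FPKM in any library, and Egfr at 0 fragments throughout.

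Other repair growth factors were also mixed. Of 25 listed genes 11 were tested, with 5 rising, 3 falling and 3 below the threshold for a call (list median of log2 fold changes 0.13). For all tested genes the shares were 30.6% higher and 30.2% lower, and the median 0.01. Vegfa, the main angiogenic factor, fell from 13.0009 ± 0.987 to 2.47 ± 0.736 FPKM (limma adjusted p = 2.52e-05), and its relative Vegfb fell from 39.7 ± 4.203 to 29.8 ± 1.197 FPKM. Angpt2, a vessel-destabilising factor, went from 2.87 ± 0.246 to 2.000 ± 0.435 FPKM with a limma adjusted p of 0.0356, which was above 0.05 without each library except KO-labelled replicate 3, reaching 0.107 without WT replicate 3. The stress-induced ligand gene Gdf15 rose from 0.504 ± 0.0378 to 2.83 ± 0.325 FPKM, the apoptotic cell bridging factor Gas6 from 0.834 ± 0.550 to 3.21 ± 0.840 FPKM and the matrix gene Ecm1 from 1.51 ± 0.201 to 4.66 ± 0.409 FPKM (all with a limma adjusted p up to 0.00402). Gdf15 and Gas6 were below 1 FPKM on average in WT and tested through their level in KO-labelled cells.

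**Figure D4:**
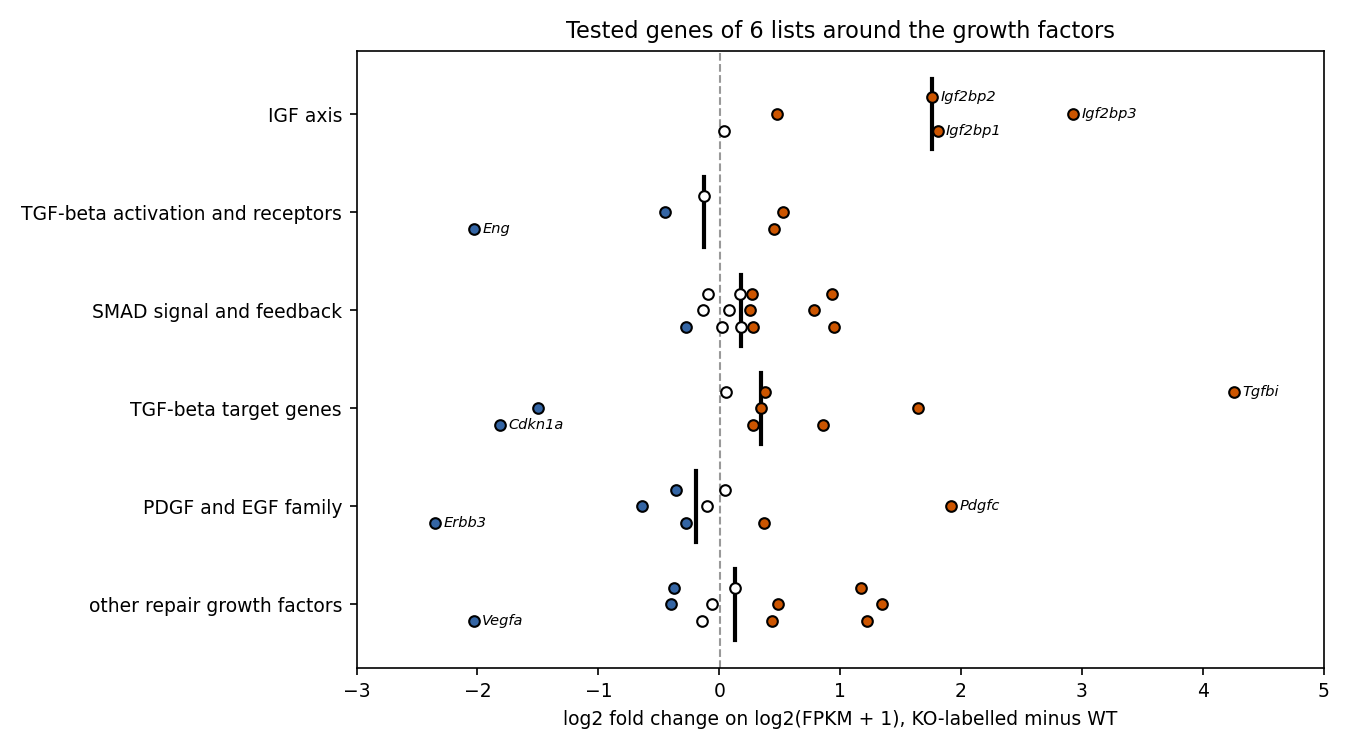
Log2 fold change on log2(FPKM + 1), KO-labelled minus WT, of the tested genes of 6 lists around the 10 genes, which are themselves left out; orange passed as higher, blue passed as lower and open points did not pass. Thick bars are list medians and the dashed line is the median of all tested genes (0.01); some of the most changed genes are named, such as Tgfbi (4.26) and Erbb3 (-2.35).

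Across the 10 genes the order of levels changed between the groups. In WT it was Tgfb1, Igf2r, Igfbp4, Tgfbr2, Pdgfb, Pdgfa, Tgfbr1, Igf1, Hbegf and Igf1r, and of the neighbours Pdgfa and Tgfbr1 overlapped between libraries. In KO-labelled cells it was Igf1, Tgfb1, Igf2r, Igfbp4, Tgfbr1, Pdgfb, Pdgfa, Tgfbr2, Igf1r and Hbegf. There Tgfbr1, Pdgfb and Pdgfa did not differ beyond their spread, nor did Tgfbr2 and Igf1r. The genes nearest to Igf1 in pattern, by Euclidean distance of centred log2(FPKM + 1) over the 6 libraries, were Mrc1 (0.18), Slc7a2 (0.19) and C1qc (0.20), the genes of the mannose receptor, an arginine transporter and a complement subunit. All 3 were at 0 fragments in WT and at 29.7 ± 1.049, 28.4 ± 1.10 and 28.3 ± 1.17 FPKM (SD, n = 3) in the KO-labelled group, the value of Slc7a2 being uncertain because an annotated gene shares a near-identical transcript with it. With 2 groups of 3 libraries this likeness mostly restates a group difference of like size.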

How the data were processed

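Poly(A)-selected RNA of 6 libraries was measured, 3 from WT and 3 from 4-1BBL KO cells, grouped by the sample titles. The authors deposited FPKM per Ensembl gene, 1 column per library. The tools named in the submitters' processing notes are featureCounts 1.5.0-p3 and HISAT2 2.0.5, with mm10 as the genome build. The annotation release, the strand setting and the handling of multi-mapping reads were not stated there. Symbols, positions and exon lengths came from GENCODE M21 (mm10), which matched 54495 identifiers. FPKM times exon length stepped in whole fragments in each library for at least 97.8% of values up to 200 fragments (within 0.1, against 20% by chance), which gave the depths and the fragment numbers.

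Differences were tested with limma 3.58.1, run in R 4.3.3, on log2(FPKM + 1), its variance prior following mean expression, for genes averaging 1 FPKM or more. Adjustment was by Benjamini-Hochberg over all tested genes at a threshold of 0.05. The fit was also run on simulated data with far fewer changed genes than passed here, and no statement rests on that run. Single values and ratios had exact permutation tests (SciPy 1.17.1). A group at 0 was set against 3 fragments per library. Near-identical transcripts of other genes were searched for the members and all listed genes (BLAST+ 2.17.0+, at least 95% identity over 80% of the shorter transcript). No member had one; of the other genes named in the text, Igf2, Irs1 and Slc7a2 did, as did Lyz2 and Itgam in the macrophage list. Alternatives were pseudocount, filter, scaling, replicate block, variance model, voom and each library left out. Besides the 10 genes, the text names the 3 largest rises and the 3 largest falls past the threshold in each of 6 lists, Tnfsf9 and the 3 genes nearest to Igf1 in pattern (mean of at least 10 FPKM). Of these, 1 gene is not reported here. Any other gene whose levels appear was chosen after its values were seen. The members and lists were chosen with earlier results of these data known.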

Additional observations from a re-analysis of the deposited data

How the results depend on the processing

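Among 14 alternatives, Igf1, Tgfbr2, Pdgfa, Pdgfb and Igfbp4 kept their direction and stayed past the threshold in all 14, and Igf1r in the 13 that tested it. Igf2r lost its call in 8 and Tgfbr1 gained one in 2. Tgfb1 changed sign in 2 and passed in none. The number of members past the threshold ran from 6 to 8. With a mean of at least 5 FPKM, fewer genes were tested, so that 1 member was higher, and the lists had 1 gene past the threshold for the IGF axis (1 higher), 2 for TGF-beta activation (1 higher, 1 lower), 3 for PDGF and EGF (1 higher, 2 lower), 3 for other repair factors (1 higher) and 1 lower TGF-beta target. Without a filter, more genes were tested, and the IGF axis had 7 (2 lower), TGF-beta activation 8 (6 higher) and SMAD genes 11 (3 lower). Leaving out single libraries gave 1 to 2 lower SMAD genes.

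With the replicate number as a block, 6194 of 10843 tested genes passed against 6594, and 6 members. Deviations of same-numbered libraries from their group means correlated at -0.03, 0.05 and -0.03. No sign of pairing by number was seen, though 3 libraries a group cannot exclude it. With so few libraries, small differences and weakly expressed genes such as Hbegf are measured with little precision.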

Other observations

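Several genes of the lists lay below the level for testing but had fragments almost only in 1 group. They were chosen after their values were seen and carry no test. Hgf, the gene of hepatocyte growth factor, had 0 fragments in WT and 757 in KO-labelled libraries (1.63 FPKM on average), at least 83.8-fold higher against a floor of 3 fragments per library. Thbs1, the gene of thrombospondin 1, a protein that can release active TGF-beta, had 0 and 213 fragments, at least 23.9-fold higher. Pmepa1, by contrast, a TGF-beta-induced gene whose product restrains SMAD signalling, had 56, 138 and 106 fragments in WT replicates 1 to 3 and 0 in the KO-labelled libraries, at least 33.2-fold lower. Stc1, whose product stanniocalcin 1 inhibits the protease that cuts IGFBP4, had 266 fragments in WT and 2 in KO-labelled libraries, a ratio of 135 with a 95% exact counting interval of 36.9 to 1118.

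Irs2, an adaptor of the insulin and IGF-1 receptors that is known as an IL-4 receptor adaptor too, had 0 fragments in WT and 1, 33 and 12 fragments in KO-labelled replicates 1 to 3, an uneven spread among libraries of 1 group. Nrp1, a co-receptor that can bind TGF-beta and PDGF, had 0.0813, 0.143 and 0.252 FPKM in WT and 1.48, 1.47 and 1.148 FPKM in KO-labelled libraries, and the groups did not overlap. Ltbp2 and Ltbp4, members of the latent TGF-beta binding protein family, were at most 0.283 FPKM in any WT library and at least 0.526 FPKM in any KO-labelled library.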
